A study of Homo sapiens with 8 samples.

Results

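The SLC25 genes encode the mitochondrial carriers, and 46 of them were read among 18377 genes with a probe set of their own in A549, an epithelial line from a human lung adenocarcinoma. A gene was taken as a carrier where its only symbol was SLC25A followed by a number, and where several probe sets carried it, the one with the highest mean stood for it. SLC25A6 was not analysed here. Cells at an air-liquid interface were exposed for 4 hr and their RNA was collected 9 hr later. There were 2 arrays for each of 4 groups. The PCA (photochemically altered) pollutants, an aged urban mix, were given in the evening and set against an evening control. The primary pollutants, a fresh urban mix, were given in the morning and set against a morning control. Control cells stayed in incubator air (humidified air in the array labels) over the same hours. A549 is a single tumour line without the other cell types of an airway, and the arrays of a group came from the same exposure run, so errors measure the spread within a run. Mixture, time of day and run change together between the comparisons and cannot be told apart.

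Most carriers sit in the inner membrane of mitochondria, which charged molecules do not cross freely. They exchange ADP for ATP, import phosphate, and pass citrate, amino acids, nucleotides, cofactors and iron between the mitochondrial matrix and the cytosol. They are encoded in the nucleus, made in the cytosol and inserted by import complexes of both mitochondrial membranes. Many work as exchangers, trading a molecule on the outside for another from the matrix.

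Values are log2 signals normalized by the authors with robust multichip average. Testing needed a signal of 30 or more on 1 or more arrays of the comparison, and 44 of the 46 carriers passed in each comparison. The testis carrier SLC25A31 and SLC25A52, a close relative of the NAD carrier SLC25A51, did not reach that signal: SLC25A31 was at 4.57 and 4.41 on the PCA pollutant, 4.45 and 4.42 on the evening control, 4.56 and 4.52 on the primary pollutant and 4.36 and 4.47 on the morning control arrays, and SLC25A52 was at no more than 3.24. The 8 arrays were fitted together in limma, and a gene is said to rise or fall at a Benjamini-Hochberg adjusted p under 0.05 over all probe sets tested and a fold change of at least 1.5, a log2 fold change of 0.58. The epithelial keratin genes KRT8 and KRT18 were at log2 signals of 13.49 to 13.70 and 13.50 to 14.08 over the 8 arrays. The other epithelial markers lay between 8.82 and 11.73. PTPRC, which marks blood cells, was at 4.08 to 4.51, below the limit. All other measured markers of other cell types reached the limit on 1 or more arrays, from DCN at 4.72 to 5.36 up to COL1A1 at 7.95 to 8.44. Of the 6 epithelial markers, the cadherin gene CDH1 fell after the PCA pollutants by 1.11 on the log2 scale (adjusted p = 0.000699) and the keratin gene KRT7 was higher by 0.34 (adjusted p = 0.0313). EPCAM was at -0.44 (adjusted p = 0.189), and a second probe set of EPCAM was at -0.47 (adjusted p = 0.0139). Of 7 tested markers of other cell types, the fibroblast gene DCN was higher by 0.42 and COL1A1 was at -0.37 (adjusted p = 0.0366 and 0.0158). The part of these shifts in the carrier results was not tested. Replicate arrays correlated at 0.992 to 0.996 over probe sets, the primary pollutant pair being the least alike. In an RNA pool of many cells, fewer cells of a kind and less RNA per cell cannot be told apart.

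SLC25A27 was the only carrier that passed the test in any comparison: it fell after the PCA pollutants. The paper, from the same arrays, also lists it among the genes lowered by the PCA pollutants. Also called UCP4, it is a relative of the uncoupling proteins and is known mainly from the brain. Its signal was low, and on each of the 8 arrays it lay under the median of that array, which was 6.93 to 7.03. Markers of other cell types lay on both sides of it. PTPRC, DCN, PECAM1, CD3E and CDH5 were below SLC25A27 on all arrays, with CDH5 the highest of them at 5.55 to 6.07. SFTPC and CD14 overlapped the range of SLC25A27, CD14 being at 6.63 to 7.03, and COL1A1 was above it at 7.95 to 8.44. Whether the signal of SLC25A27 reflects expression of the gene in A549 was not tested. The log2 signal of SLC25A27 was 6.19 and 6.09 on the PCA pollutant arrays, against 6.77 and 6.93 on the evening control arrays. Both exposed arrays lay below every other array of the study, since the primary pollutant arrays were at 6.66 and 6.57 and the morning controls at 6.70 and 6.67. It fell by 0.71 on the log2 scale (standard error, SE, of 0.0845, 95% interval -0.90 to -0.51, adjusted p = 0.00289), to 0.612 of the evening control level. Leaving out any single array kept the call, with log2 fold changes of -0.79 to -0.63. The evening controls were 0.16 above the morning controls (adjusted p = 1), and against the morning controls the PCA arrays had a log2 fold change of -0.55 (adjusted p = 0.00795), below the fold limit. When limma's treat tested it against the 1.5-fold limit itself, it did not pass, and scaled to ribosomal protein genes its log2 fold change was -0.56, again below the fold limit.

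**Figure D1:**
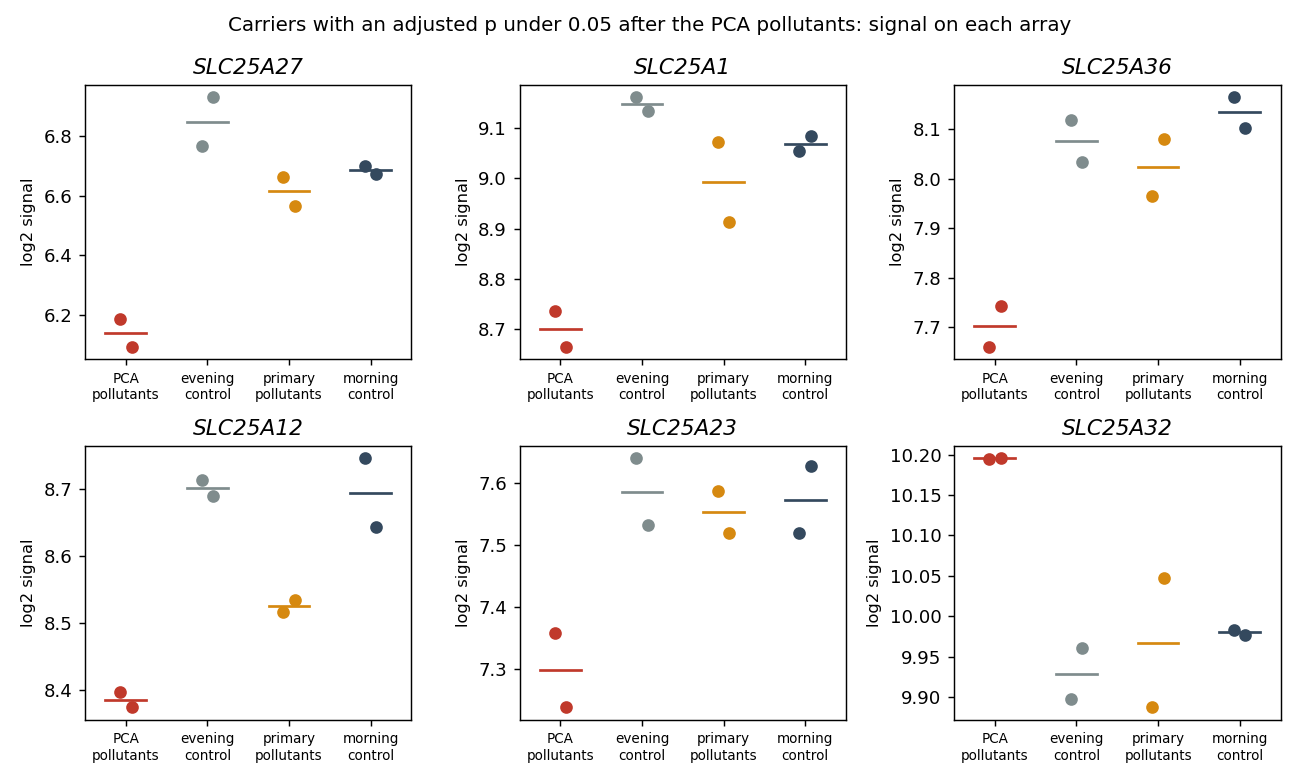
Log2 signal (vertical axes, scaled to each gene) of the 6 carriers with an adjusted p under 0.05 in the PCA comparison, 1 point per array in its group, with group means as lines. In each panel the 2 PCA pollutant arrays lie on 1 side of all other arrays, below them for SLC25A27, SLC25A1, SLC25A36, SLC25A12 and SLC25A23 and above them for SLC25A32.

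Of the 44 carriers tested after the PCA pollutants, 1 fell and 0 rose, a share of 2.27% against 3.53% of all 17470 genes tested. Falls alone were 2.27% of carriers and 2.66% of genes. Without the fold limit, 6 carriers had an adjusted p under 0.05 (13.6%, against 19.7% of all genes), 5 of them lower (14.1% of all genes were) and 1 higher (5.63%). The groups did not overlap for 34 carriers (77.3%, against 68.3% of all genes), 13 of them higher (31.7% of all genes were) and 21 lower (36.6%). An unadjusted p under 0.05 was found for 13 carriers, or 29.5% against 36.9% of all genes. Their median log2 fold change was -0.0632, against -0.00169 over all genes, and 27 of the 44 (61.4%) were below 0, against 50.3% of all genes. The carrier median was -0.00311 after quantile normalization and 0.0852 when arrays were scaled to ribosomal protein genes, a scaling that moved the median of all genes to 0.148. The spread of the family (SD 0.233 over 44 genes) was close to that of all genes (SD 0.274).

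**Figure D2:**
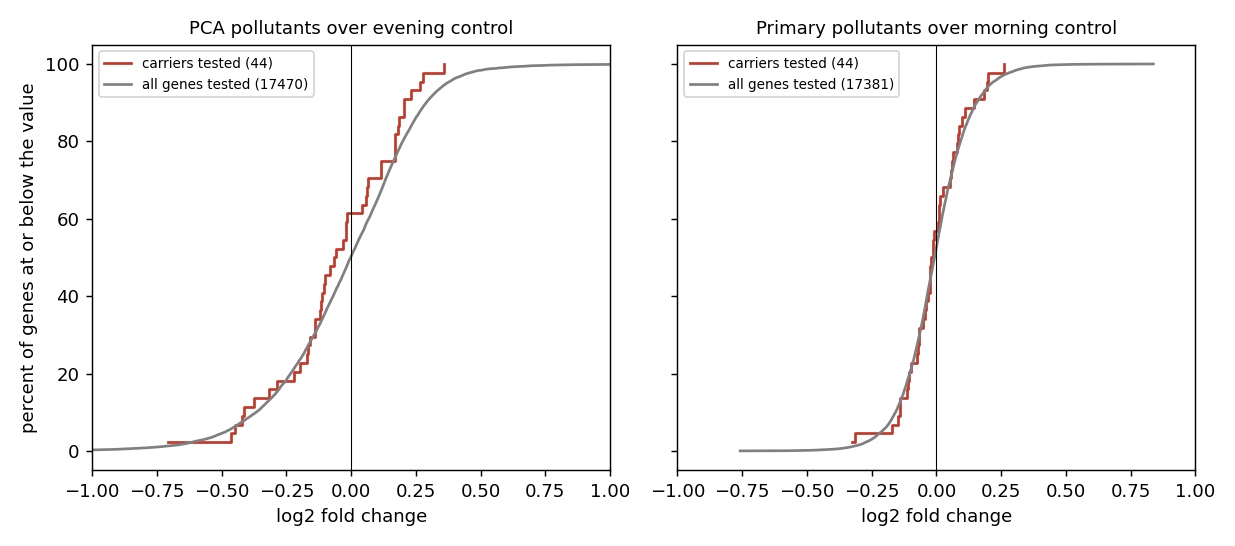
Percent of genes (vertical axes) at or below each log2 fold change (horizontal axes, shown between -1 and 1) for the 44 carriers tested (red) and for all genes tested (grey), after the PCA pollutants (left) and the primary pollutants (right). The carrier curve lies close to that of all genes, with 61.4% of carriers below 0 at left and 56.8% at right (50.3% and 52.6% of all genes).

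The stretches of 250 bases before the gene starts of the 5 carriers that were lower with an adjusted p under 0.05 are shown so that the sequence next to these genes can be read beside their values. They are from RefSeq (GRCh38.p14), which gave an entry for 39 of the 46 carriers. SLC25A27 lies at chr6:46652725-46652974, plus strand. The others are SLC25A1 (chr22:19178737-19178986, minus strand), SLC25A36 (chr3:140941586-140941835, plus strand), SLC25A12 (chr2:171894245-171894494, minus strand) and SLC25A23 (chr19:6459793-6460042, minus strand). Capitals mark matches on either strand to CCAAT (the NF-Y box), GGGCGG (the GC box bound by Sp1), CACGTG (the E box), CCGGAAG (an ETS site) and the palindromic NRF1 site.
SLC25A27: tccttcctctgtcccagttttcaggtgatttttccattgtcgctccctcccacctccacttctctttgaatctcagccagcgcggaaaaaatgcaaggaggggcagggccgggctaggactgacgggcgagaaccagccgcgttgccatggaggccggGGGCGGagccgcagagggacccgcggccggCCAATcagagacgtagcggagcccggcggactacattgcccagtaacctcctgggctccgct
SLC25A1: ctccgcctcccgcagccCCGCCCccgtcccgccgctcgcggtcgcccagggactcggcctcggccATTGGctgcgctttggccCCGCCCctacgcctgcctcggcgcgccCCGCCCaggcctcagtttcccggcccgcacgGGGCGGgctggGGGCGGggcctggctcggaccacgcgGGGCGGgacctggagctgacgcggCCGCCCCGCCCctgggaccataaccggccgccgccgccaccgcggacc
SLC25A36: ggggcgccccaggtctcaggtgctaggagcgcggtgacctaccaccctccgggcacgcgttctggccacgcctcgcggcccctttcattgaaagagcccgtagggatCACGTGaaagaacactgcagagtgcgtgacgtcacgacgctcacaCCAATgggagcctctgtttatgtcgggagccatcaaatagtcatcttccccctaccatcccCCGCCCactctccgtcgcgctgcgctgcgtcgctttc
SLC25A12: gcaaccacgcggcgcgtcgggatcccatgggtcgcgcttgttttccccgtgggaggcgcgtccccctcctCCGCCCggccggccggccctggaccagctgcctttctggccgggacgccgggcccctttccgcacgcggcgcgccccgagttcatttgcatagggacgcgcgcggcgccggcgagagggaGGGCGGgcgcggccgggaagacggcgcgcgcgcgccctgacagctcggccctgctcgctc
SLC25A23: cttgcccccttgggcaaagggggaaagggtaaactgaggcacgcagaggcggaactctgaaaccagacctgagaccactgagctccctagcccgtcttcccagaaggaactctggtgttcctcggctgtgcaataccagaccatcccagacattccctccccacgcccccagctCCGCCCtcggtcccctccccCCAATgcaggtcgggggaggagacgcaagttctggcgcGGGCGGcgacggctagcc
SLC25A27 and SLC25A23 each have a CCAAT match, 62 and 56 bases before the start as counted to its first base, SLC25A36 has one at 98, and SLC25A1 has one in the reverse direction at 185. SLC25A12 has none in this window. All 5 have a GC box, with 8 in SLC25A1, where the match at 48 bases overlaps that at 43 by its last base. Only SLC25A36 has an E box, at 143 bases, and no ETS or NRF1 match is in the 5 windows. Of 27305 gene starts in the table, 33% hold CCAAT and 42.3% a GC box in the same window, as do 43.6% and 69.2% of the 39 carriers. An E box is in 6.49% of all and 17.9% of the carrier windows, an ETS site in 8.82% and 20.5%, and an NRF1 site in 5.53% and 10.3%. A match is a likeness of letters and not a measured site.

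Among the carriers of di- and tricarboxylates and of carnitine, SLC25A1 and SLC25A20 were the lower members, and none of the 5 rose or fell. SLC25A1, which exports citrate to the cytosol where it feeds lipid synthesis, had log2 signals of 8.74 and 8.67 on the PCA pollutant arrays, against 9.16 and 9.13 on the evening control arrays. The groups did not overlap, and the log2 fold change was -0.45 with an SE of 0.079 (adjusted p = 0.0104), short of the fold limit. Without evening control replicate 1 its adjusted p was 0.064, without evening control replicate 2 it was 0.0608 and without PCA pollutants replicate 2 it was 0.0513. SLC25A20, which carries acylcarnitines into the matrix for fatty acid oxidation, was at 7.67 and 7.75 after the PCA pollutants, against 8.09 and 8.16 in the evening control, a log2 fold change of -0.42 with an SE of 0.125 (adjusted p = 0.0531). The p was under 0.05 in 8 of 20 other settings, 1 of them an unadjusted analysis of variance, at 0.0299 with a minimum signal of 100 and 0.0186 with a trended and robust prior. The dicarboxylate carrier SLC25A10 (-0.10), the oxoglutarate carrier SLC25A11 (0.04) and the oxodicarboxylate carrier SLC25A21 (0.20) had adjusted p of 0.303, 0.664 and 0.224. The median of the 5 was -0.103.

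Carriers of amino acids were divided, with 5 of 9 below 0, 4 above, and none past the fold limit. SLC25A12, the calcium-regulated aspartate-glutamate carrier of the malate-aspartate shuttle, was at 8.40 and 8.37 after the PCA pollutants, against 8.71 and 8.69 in the evening control, a log2 fold change of -0.32 with an SE of 0.0703 (adjusted p = 0.0216). Its adjusted p was 0.0592 to 0.109 when any 1 array of these 2 groups was left out, 0.0593 after quantile normalization and 0.109 when arrays were scaled to ribosomal protein genes. SLC25A13, the other carrier of this shuttle (citrin), was at 9.86 and 9.84, against 10.04 and 10.01 in the evening control, a log2 fold change of -0.17 with an SE of 0.0679 (adjusted p = 0.115). The groups of both carriers did not overlap. On the higher side were SLC25A29, a carrier of basic amino acids, at 0.18 with an SE of 0.0688 (adjusted p = 0.0997), and the ornithine carrier SLC25A15 at 0.23 with an SE of 0.0994 (adjusted p = 0.135). SLC25A29 was at 8.38 and 8.44 on the PCA pollutant arrays and 8.20 and 8.25 on the evening control arrays. The glutamate carriers SLC25A22 and SLC25A18 had log2 fold changes of 0.17 and 0.17, and the glycine carrier SLC25A38, which serves haem synthesis, was at -0.17. SLC25A18, the tested carrier of lowest mean signal, was at 6.17 and 6.10 on the PCA pollutant arrays, against 5.91 and 6.01 on the evening control arrays. The ornithine carrier SLC25A2 and SLC25A44, a carrier of branched-chain amino acids, were at -0.06 and -0.08.

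Of 8 cofactor and nucleotide carriers tested, SLC25A36 was lower and SLC25A32 higher at an adjusted p under 0.05, both within the fold limit. SLC25A36, which moves pyrimidine nucleotides, was at 7.66 and 7.74 after the PCA pollutants, against 8.12 and 8.03 in the evening control, a log2 fold change of -0.38 with an SE of 0.0785 (adjusted p = 0.0176). The group difference was larger than the spread between replicates, and no array of the study outside the PCA group was as low. Its adjusted p was 0.102 without evening control replicate 1, 0.0688 without evening control replicate 2 0.0676 without PCA pollutants replicate 1 and 0.0537 with ribosomal scaling. SLC25A33, the other pyrimidine nucleotide carrier, was at 0.12 with an SE of 0.0742 (adjusted p = 0.284). SLC25A32, which brings folate into the matrix, was at 10.19 and 10.20, against 9.90 and 9.96 in the evening control, and had the only positive log2 fold change past the adjusted limit, 0.27 with an SE of 0.0781 (adjusted p = 0.0499). That p lies at the limit and was above it when any 1 array of the evening control, PCA pollutant or morning control groups was left out, at 0.0859 to 0.208. It was 0.128 with arrays centred on their medians, 0.0633 without the minimum signal, 0.0646 in a fit of the 4 arrays alone, 0.067 with the replicate number as a block and 0.0887 against the morning controls. SLC25A16, a carrier linked to coenzyme A, was at 7.12 and 6.97, against 7.41 and 7.52 in the evening control, a log2 fold change of -0.42 with an SE of 0.128 (adjusted p = 0.0549). In 7 of 20 other settings the p was under 0.05, the same 2 settings giving 0.0312 and 0.0258. The remaining members, SLC25A51, SLC25A26, SLC25A17 and SLC25A42, which serve NAD, S-adenosylmethionine, peroxisomal cofactors and coenzyme A, lay between -0.22 and 0.07, with adjusted p of 0.158 or more.

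The carriers that exchange ADP for ATP and import phosphate, the core of ATP export, had small log2 fold changes and none passed. SLC25A5, an ADP/ATP carrier of growing cells, was at 11.37 and 11.47 on the PCA pollutant arrays and 11.58 and 11.49 on the evening control arrays, a log2 fold change of -0.11 with an SE of 0.0788 (adjusted p = 0.318) with a 95% interval of -0.30 to 0.07. SLC25A4, the form of heart and muscle, was at -0.10 with an SE of 0.0931 (adjusted p = 0.434). SLC25A3, the phosphate carrier, was at 11.26 and 11.36, against 11.44 and 11.47 in the evening control, a log2 fold change of -0.14 with an SE of 0.0723 (adjusted p = 0.196) with a 95% interval of -0.31 to 0.03. These intervals leave out a 1.5-fold change in either direction. SLC25A5 and SLC25A3 have processed pseudogenes of like sequence, so their signals may hold more than 1 gene. Besides SLC25A27, the uncoupling-protein-like carriers SLC25A14 (UCP5) and SLC25A30 were at -0.12 and -0.11, with adjusted p of 0.473 and 0.37.

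SLC25A23, of the calcium-sensing carriers that exchange ATP-Mg for phosphate, was the fifth lower member at an adjusted p under 0.05. It was at 7.36 and 7.24 after the PCA pollutants, against 7.64 and 7.53 in the evening control, a log2 fold change of -0.29 with an SE of 0.0832 (adjusted p = 0.0482). Its adjusted p was 0.0651 to 0.217 when any 1 array of the evening control, PCA pollutant or morning control groups was left out. It was 0.232 with ribosomal scaling, 0.0612 without the minimum signal, 0.0767 in a fit of the 4 arrays alone, 0.0677 with the replicate number as a block and 0.0546 against the morning controls. Of its relatives, SLC25A24 was at -0.14, SLC25A25 at -0.02 and SLC25A41 at 0.28 (adjusted p = 0.383, 0.917 and 0.157). SLC25A41 was at 6.20 and 6.37 on the PCA pollutant arrays, against 5.86 and 6.15 on the evening control arrays, with no overlap.

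Among carriers of iron and glutathione, SLC25A40 had the second most negative log2 fold change of all carriers and did not pass. It is a close relative of SLC25A39, which imports glutathione, the main thiol antioxidant. SLC25A40 was at 7.94 and 7.74 on the PCA pollutant arrays, against 8.25 and 8.36 on the evening control arrays, a log2 fold change of -0.46 with an SE of 0.14 (adjusted p = 0.0547). Here too 7 of 20 other settings gave a p under 0.05, with 0.0313 at a minimum signal of 100 and 0.0186 with a trended and robust prior. It was at 8.27 and 8.56 after the primary pollutants and 8.64 and 8.32 in the morning control, so that the replicates of both morning groups lay farther apart than those of the evening groups. SLC25A39 was at -0.02 with an SE of 0.0906 (adjusted p = 0.89). Of the mitoferrins, which bring iron in for haem and iron-sulphur clusters, SLC25A37 was at 8.87 and 8.77, against 8.59 and 8.63 in the evening control, a log2 fold change of 0.21 with an SE of 0.0801 (adjusted p = 0.107), and SLC25A28 was at 0.06 with an SE of 0.0748 (adjusted p = 0.592). A second probe set of SLC25A37 was at 0.18 (adjusted p = 0.254), and a second one of SLC25A33 at 0.11 (adjusted p = 0.583).

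Of 8 carriers of the outer membrane or of little-known substrate, 5 were above 0 and none passed. SLC25A34 had the largest positive log2 fold change of the family, 0.36 with an SE of 0.123 (adjusted p = 0.0771), with signals of 7.45 and 7.60 after the PCA pollutants and 7.13 and 7.20 in the evening control. SLC25A46, an outer membrane protein of mitochondrial shape, was at -0.02 with an SE of 0.0678 (adjusted p = 0.86), and SLC25A43 at -0.03 with an SE of 0.0805 (adjusted p = 0.787). The other members SLC25A35, SLC25A45, SLC25A47, SLC25A48 and SLC25A53 lay between -0.16 and 0.18.

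**Figure D3:**
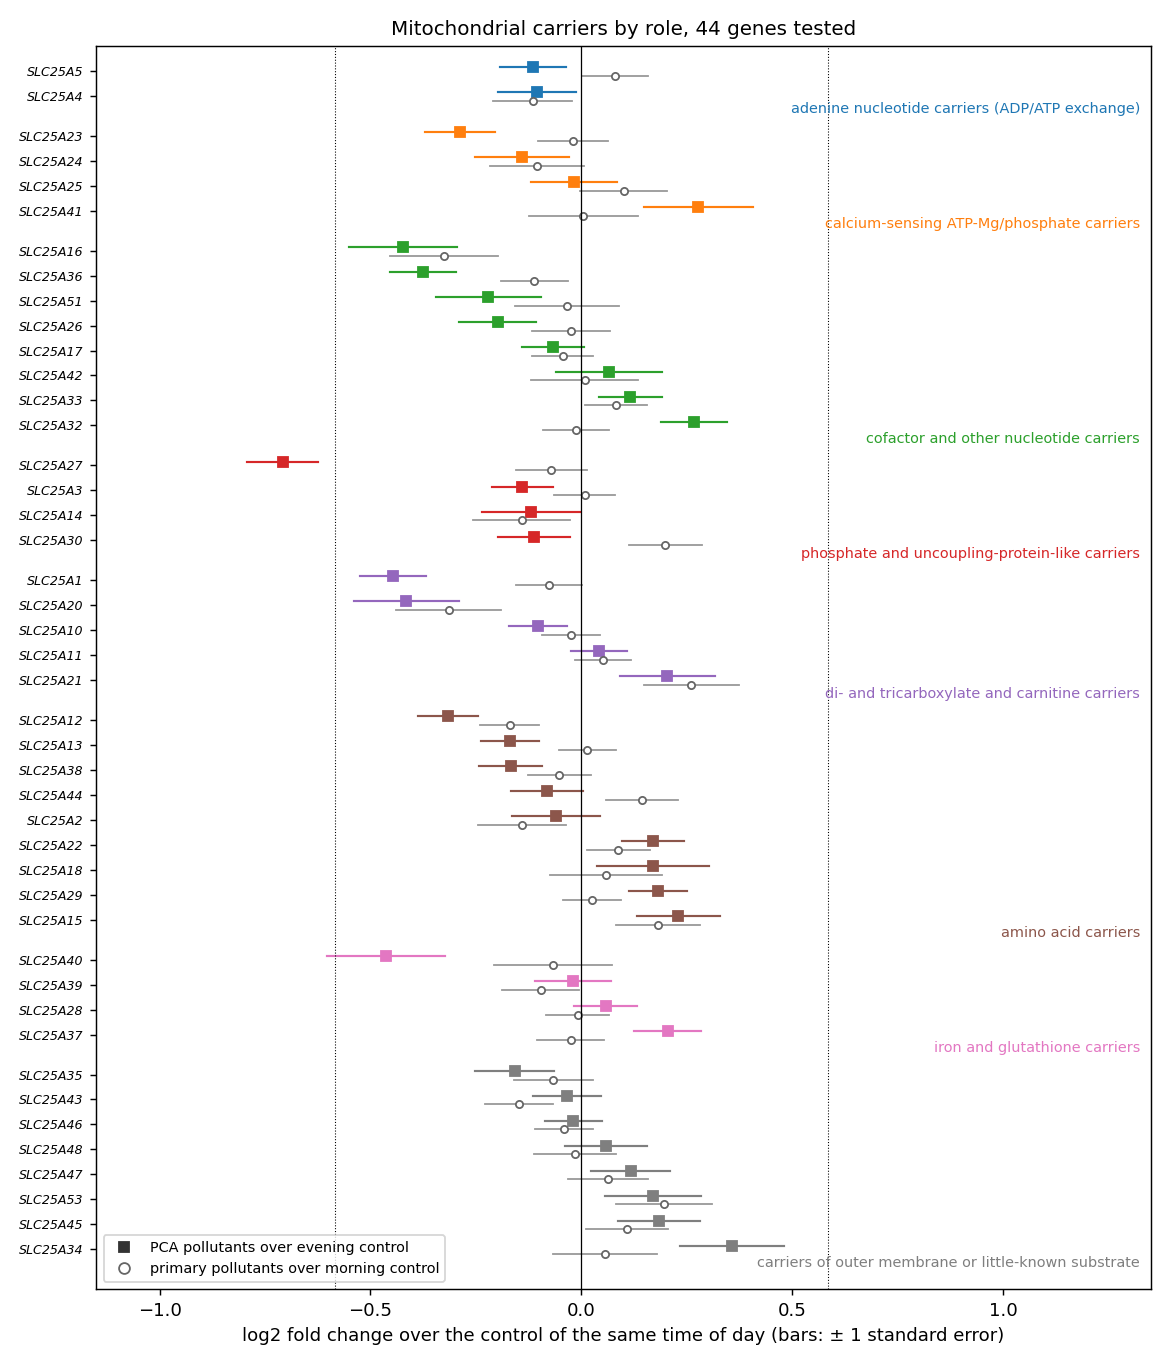
Log2 fold change (horizontal axis) of the 44 carriers tested, for the PCA pollutants over the evening control (filled squares, coloured by role) and the primary pollutants over the morning control (open circles), with bars of 1 standard error from the fit over 8 arrays (n = 2 arrays per group) and dotted lines at the 1.5-fold limit. SLC25A27 alone lies beyond the limit, at -0.71.

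After the primary pollutants no carrier rose or fell, as 0% of all 17381 genes tested did in limma. The paper used an analysis of variance with q-values and does list genes altered by this mixture at the same fold limit. None of them is an SLC25 gene, and for some the paper reports PCR changes in the same direction. The 0% is therefore a count of this fit. An unadjusted p under 0.05 was found for 3 carriers (6.82%, against 7.9% of all genes), each of them lower, as were 4.63% of genes. The groups did not overlap for 18 (40.9%, against 38.7% of all genes). The 3 were SLC25A16, SLC25A20 and SLC25A12, which also lay lower after the PCA pollutants. SLC25A16 was at 7.11 and 7.45 after the primary pollutants, against 7.70 and 7.52 in the morning control, a log2 fold change of -0.33 with an SE of 0.128 (adjusted p = 0.548). SLC25A20 was at 7.67 and 8.04, against 8.26 and 8.08 in the morning control, a log2 fold change of -0.31 with an SE of 0.125 (adjusted p = 0.55). In both genes the first primary pollutant array lay well below the second. Without primary pollutants replicate 1 their log2 fold changes were -0.15 and -0.13. SLC25A12 was at 8.52 and 8.53, against 8.75 and 8.64 in the morning control, a log2 fold change of -0.17 with an SE of 0.0703 (adjusted p = 0.573), with both replicates alike. The largest positive values were those of SLC25A21 at 0.26 with an SE of 0.113 (adjusted p = 0.589) and SLC25A30 at 0.20 with an SE of 0.0863 (adjusted p = 0.59). SLC25A21 was at 6.63 and 6.94 after the primary pollutants, against 6.58 and 6.46 in the morning control, and SLC25A30 was at 7.88 and 7.70, against 7.59 and 7.59 in the morning control. For both genes the groups did not overlap. SLC25A53, of unsettled substrate, was at 7.37 and 7.07 after the primary pollutants, against 6.93 and 7.11 in the morning control, and its groups overlapped. The family median was -0.0168, against -0.00724 over all genes, and it was 0.0144 without primary pollutants replicate 2. When arrays were scaled to ribosomal protein genes it was 0.0864, and that scaling moved the median of all genes to 0.0961. SLC25A27 was at -0.07 with an SE of 0.0845 (adjusted p = 0.863), with a 95% interval of -0.27 to 0.13.

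**Figure D4:**
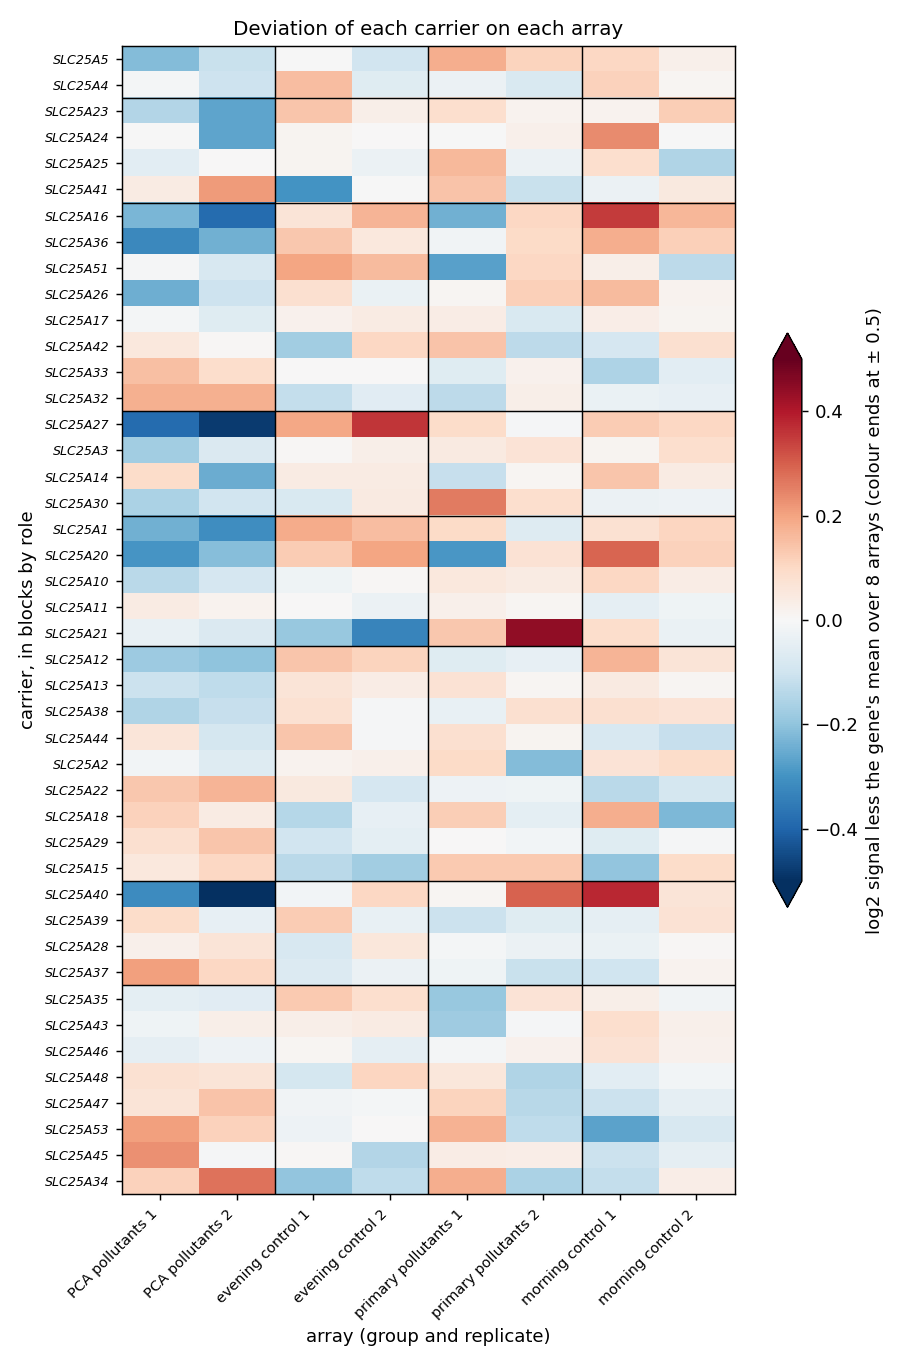
Log2 signal of each of the 44 carriers (rows, in blocks by role) on each of the 8 arrays (columns), less the gene's mean over the 8 arrays, with colours ending at 0.5 either way. Both PCA pollutant arrays lie below all 6 other arrays for SLC25A27 and SLC25A40, and the first primary pollutant array is low for SLC25A16 and SLC25A20.

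The PCA response less the primary response was tested for each carrier, and none passed (0.439% of all 17540 genes tested did). The largest difference was that of SLC25A27, -0.64 with an SE of 0.119 (adjusted p = 0.0706), with a 95% interval of -0.91 to -0.36. It passed with a minimum signal of 100, with a trended and robust prior, and in an unadjusted analysis of variance. An unadjusted p under 0.05 was found for 5 carriers (11.4%, against 17.6% of all genes). Besides SLC25A27 these were SLC25A1 at -0.37 with an SE of 0.112 (adjusted p = 0.158), SLC25A30 at -0.31 with an SE of 0.122 (adjusted p = 0.246), SLC25A32 at 0.28 with an SE of 0.11 (adjusted p = 0.248) and SLC25A36 at -0.26 with an SE of 0.111 (adjusted p = 0.271). Of these 5, only SLC25A30 had responses of opposite sign with no overlap of groups in either comparison. It was at 7.46 and 7.52 after the PCA pollutants, against 7.54 and 7.66 in the evening control, and at 7.88 and 7.70 after the primary pollutants, against 7.59 and 7.59 in the morning control.

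Between the controls, 0 of 44 carriers changed, as 0% of all 17310 genes tested did, and 1 carrier (2.27%, against 4.97% of genes) had an unadjusted p under 0.05. The groups did not overlap for 16 carriers (36.4%, against 41.7% of all genes). The carrier with an unadjusted p under 0.05 was SLC25A21, at 6.30 and 6.17 in the evening control, against 6.58 and 6.46 in the morning control, a log2 fold change of -0.29 with an SE of 0.113 (adjusted p = 1). The evening control is shared with the PCA comparison and the morning control with the primary comparison, in both of which SLC25A21 had a positive value. The most positive value was that of SLC25A51, the NAD carrier, at 6.61 and 6.57 in the evening control, against 6.44 and 6.28 in the morning control, a log2 fold change of 0.23 with an SE of 0.124 (adjusted p = 1). SLC25A44 was at 8.68 and 8.53 in the evening control, against 8.46 and 8.42 in the morning control. The carrier median was -0.0169, against 0.00337 over all genes.

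Other genes of mitochondrial transport and of the pathways that carriers serve were counted from lists chosen by function. In this fit no gene of these 8 lists passed the fold limit after either mixture. The counts that follow are therefore of genes with an adjusted p under 0.05 after the PCA pollutants. Beside them, 14.1% of all genes were lower and 5.63% higher, with a median over all genes of -0.00169. Of 15 other metabolite channels and carriers, 4 were lower and none higher, with a median of 0.0165. UCP2, an uncoupling protein, was at -0.45 with an SE of 0.0785 (adjusted p = 0.0102), and the sideroflexins SFXN5 and SFXN2, carriers of amino acids by family, were at -0.40 and -0.43. Of 13 genes of the import machinery that inserts carriers, 0 had an adjusted p under 0.05, and the median was -0.0284. Of 10 regulators of mitochondrial genes, 1 was counted as lower. It was GABPA, an ETS factor, whose 2 probe sets differed in sign. The one of higher mean signal was at -0.52 with an SE of 0.12 (adjusted p = 0.0243). The other was at 0.17 with an SE of 0.0832 (adjusted p = 0.179), so no direction is given for the gene. The paper instead lists GABPA among the genes raised by the PCA pollutants past the same fold limit. Probe sets with several symbols were not read here. PPARGC1A, a coactivator of mitochondrial biogenesis, was at -0.41 with an SE of 0.126 (adjusted p = 0.0583).

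Enzymes of the pathways that carriers serve were counted in the same way, against the same 14.1% of all genes lower and 5.63% higher. Of 4 carnitine shuttle enzymes, 2 were lower and none higher: CRAT, carnitine acetyltransferase, at -0.46 with an SE of 0.073 (adjusted p = 0.00738) and CPT2, which frees fatty acids from carnitine in the matrix, at -0.37 with an SE of 0.0708 (adjusted p = 0.0132). CPT1A, which loads fatty acids onto carnitine, was at -0.08. Of 4 malate-aspartate shuttle enzymes, MDH1, the cytosolic malate dehydrogenase, was lower at -0.36 with an SE of 0.0831 (adjusted p = 0.0238). Of 15 citrate cycle enzymes, 4 were lower and none higher, among them IDH2, SUCLG1 and SDHA at -0.50, -0.33 and -0.29, and the list's median was -0.171, against -0.00169 over all genes. Of 8 haem and iron-sulphur genes, only FECH, which inserts iron to form haem, had an adjusted p under 0.05, at -0.51 with an SE of 0.0799 (adjusted p = 0.00686). Of 5 mitochondrial one-carbon enzymes, which use the folate that SLC25A32 brings in, MTHFD2 was higher at 0.27 with an SE of 0.0673 (adjusted p = 0.0313) and none was lower. After the primary pollutants no gene of these lists had an adjusted p under 0.05.

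Over the 8 arrays, the genes whose signal followed SLC25A27 most closely among 17469 compared were SULT2B1, KANSL1, ID1, ROBO1 and ATXN2, with Pearson's r of 0.99 for each. These correlations describe 8 points in 4 groups, of which the PCA pollutant arrays stand apart, and the highest values among so many genes are high by selection. Among the carriers, SLC25A1 (r = 0.967) and SLC25A13 (r = 0.917) followed it most closely, and SLC25A29 ran most against it (r = -0.916).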

How the data were processed

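Gene expression was measured on 8 Affymetrix Human Gene 1.0 ST arrays, 2 per group. The authors deposited log2 signals, which they background-corrected, quantile-normalized and summarized by robust multichip average (Partek 6.4 in the submitters' processing notes), so arrays were put on 1 scale and a shift shared by all genes cannot be seen. Of 28869 probe sets, 19310 carried 1 gene symbol, 1752 several and 7807 none. Only the first kind was named (18377 genes, highest-mean probe set), with symbols updated by the GRCh38.p14 annotation.

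Probe sets reaching a signal of 30 on at least 1 array of a comparison were tested with limma 3.58.1 in R 4.3.3, all 4 groups in 1 fit, with Benjamini-Hochberg adjustment over 25264 (PCA), 25040 (primary), 25412 (difference) and 24914 (controls) probe sets. Calls needed an adjusted p under 0.05 and a 1.5-fold change. All p-values in the text are from this fit unless another setting is named. The scripts were tested on simulated data. Sequences and symbols were handled in Python 3.11.15. The members and lists were chosen with earlier results of these data known. Carriers were named with values per array where called, where an unadjusted p was under 0.05 without overlap of groups in either exposure, where among the 3 highest or lowest fold changes of a comparison or the 3 highest or lowest mean signals, or where the smallest p of a role group after the PCA pollutants was theirs. Of the related lists, up to 3 genes of smallest p were named. Alternatives covered the minimum signal, array scaling, the prior, the samples fitted, the control used, the replicate block and each array left out.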

Additional observations from a re-analysis of the deposited data

How the results depend on the processing

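After the PCA pollutants, the number of carriers called was 0 with arrays scaled to ribosomal protein genes and 0 with limma's treat against the 1.5-fold limit, and it was 6 without a fold limit. With the controls exchanged it was 1, but the gene was SLC25A40 and not SLC25A27. For the PCA response less the primary response it was 1, SLC25A27, with a minimum signal of 100, with a trended and robust prior and in an unadjusted analysis of variance. The cause of these shifts was not tested. The carrier median after the PCA pollutants was -0.0919 with a minimum signal of 100, -0.124 with arrays centred on their medians, -0.00311 after quantile normalization and 0.0852 with arrays scaled to ribosomal protein genes. With these 3 scalings the median over all genes after the PCA pollutants was -0.0632, -0.00953 and 0.148. For the difference of responses the same scalings gave carrier medians of -0.0667, 0.00607 and 0.0211. Ribosomal scaling gave a carrier median of 0.0864 after the primary pollutants, against 0.0961 over all genes, and 0.0729 between the controls. With each array left out in turn the medians were -0.0777 to -0.0305 after the PCA pollutants, -0.0265 to 0.0144 after the primary pollutants, -0.0665 to 0.00792 for the difference and -0.0257 to 0.00439 between the controls, and the count after the PCA pollutants was 1 throughout. Of all genes called after the PCA pollutants, 75.2% were lower, against 86.5% with centred arrays, 74.3% after quantile normalization and 28.6% with ribosomal scaling. With the replicate number as a replicate block the counts were the same, 1 and 0, and the PCA median was -0.0632, with SLC25A27 at an adjusted p of 0.00846 in limma. Deviations of same-numbered arrays correlated at -0.0975 (primary and morning control), 0.00477 (PCA and evening control) and 0.0545 (the controls). No strong effect shared by same-numbered arrays was seen. With 2 arrays per group, these values cannot show whether the numbers pair the arrays.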
